A study of Mus musculus with 4 samples.

Results

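The genes described here build and fill the lysosome. They are the 52 of 55414 annotated mouse genes whose symbols begin with Atp6v0, Atp6v1 or Atp6ap, or consist of Cts and 1 further letter, or are Lamp1, Lamp2, Lipa, Npc2, Psap or Grn. The rule uses symbols alone and no measured value, but it was set with earlier results of these data known. Their transcripts were counted in single cells of livers of 2-month-old mice in 4 groups. The TNF groups, S/S and A/A, were taken 3 h after each mouse received 500 ng of the inflammatory cytokine TNF intraperitoneally, and the baseline groups, S/S and A/A, had no challenge. The genotype symbols S/S and A/A are used as the labels give them, since the labels do not say which locus they stand for. Livers were perfused and digested, non-parenchymal cells were enriched by slow centrifugation, dead cells were taken out on Ficoll, and a flow sort enriched macrophages and live cells. Each group gave 1 library from the pooled cells of 2 mice. With no replicates, no comparison was tested: every difference is between 2 libraries, and the 95% intervals in square brackets cover counting error only.

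The vacuolar proton pump (V-ATPase) burns ATP to move protons into lysosomes and so makes them acid. Its V0 sector is a ring and channel in the membrane, its V1 sector is the ATP-splitting head in the cytosol, and the Atp6ap proteins help to assemble it. Cathepsins are proteases that work best in this acid and digest what a cell takes up, and macrophages and dendritic cells use them to cut antigens for display. Macrophages of the liver clear particles and dying cells from the blood and are known for abundant lysosomes.

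Several of these genes are known targets of the transcription factor TFEB, which binds a motif called CLEAR, so the promoters were searched for its core. RefSeq promoter windows (250 bases before to 50 after a gene's start, build GRCm38.p6) were found for 39 of the 52 genes, with 44 windows in all. The core, TCACGTGA, reads the same on both strands and was in 5 of these 44 windows (11.4%), against 320 of all 32851 windows (0.974%). The shorter E-box inside it, CACGTG, was in 9 of the 44 windows (20.5%), among them the same 5, against 7.15% of all windows. The windows cover only these bases, and no binding was measured. The 60-base stretches below show the core matches of all 5 windows, in capitals. They also show the E-boxes of Lamp1 and Atp6v0b, which stood several to a stretch, again in capitals. They were read 5′ to 3′ on the strand of the gene.
Ctsa (chr2:164833734-164833793, + strand): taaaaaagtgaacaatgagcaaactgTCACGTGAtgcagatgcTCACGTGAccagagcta
Ctsd (chr7:142387893-142387952, - strand): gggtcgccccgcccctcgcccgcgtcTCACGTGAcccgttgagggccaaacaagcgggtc
Atp6v0d1 (chr8:105566035-105566094, - strand): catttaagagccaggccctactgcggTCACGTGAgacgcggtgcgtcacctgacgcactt
Atp6v1a (chr16:44139358-44139417, - strand): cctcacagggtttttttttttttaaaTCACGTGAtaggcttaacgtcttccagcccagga
Atp6v0e (chr17:26676372-26676431, + strand): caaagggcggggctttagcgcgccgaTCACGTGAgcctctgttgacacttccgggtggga
Lamp1 (chr8:13159096-13159155, + strand): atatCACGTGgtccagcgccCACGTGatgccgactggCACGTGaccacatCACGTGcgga
Atp6v0b (chr4:117887310-117887369, - strand): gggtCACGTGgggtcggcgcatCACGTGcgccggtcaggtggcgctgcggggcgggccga
The Ctsa stretch holds 2 cores, the Lamp1 stretch 4 E-boxes and the Atp6v0b stretch 2.

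The libraries held 5848 (S/S TNF), 6531 (A/A TNF), 4983 (S/S baseline) and 3230 (A/A baseline) barcodes, and 21088801 to 54999906 UMIs, the tags that count single transcript molecules. The 4 libraries shared 4 to 12 barcodes per pair. Cells were put in a class by counting which of 10 listed markers per class had a UMI, and no gene described here is such a marker. The class called macrophage held 410 (S/S TNF), 536 (A/A TNF), 490 (S/S baseline) and 422 (A/A baseline) cells, with a median of 2942.5, 2528.5, 1471.5 and 2228.5 UMIs in that order. A median of 5 to 7 of the 10 macrophage markers was seen per cell, against 1 or 2 of the next class, and all 10 had UMIs in each library. In the same library order, 121, 76, 93 and 57 macrophage-class cells lay at the limit of the marker rule, and 133, 79, 81 and 51 barcodes lay just outside it. No doublet caller was run, and cells with markers of several classes were handled by that margin and by a stricter rule given where it mattered. Software versions differed between the TNF libraries (6.1.2) and the baseline libraries (7.1.0), so version and treatment cannot be told apart. Among the 10 genes that led each class by fold, the macrophage class held 3 (S/S TNF) or 7 (the other libraries) of its own markers. In S/S TNF its list opened with Prg4, Cxcl13 and Serpinb2. Prg4 and Cxcl13 were also on the A/A TNF list, while Serpinb2 and Alox15 were on the S/S TNF list alone. The endothelial class held 4 of its own at baseline and 0 after TNF, when Lyve1, Thbd and Aqp1 were among its leading genes, and no class was led by a marker of another. Levels are given as UMIs per 1000000 UMIs of the class (CPM). They count 3′ tags and are not divided by transcript length.

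Of the 52 genes, 36 had at least 100 UMIs over the macrophage, monocyte, endothelial, dendritic and neutrophil classes of the 4 libraries, 8 had fewer and 8 had none. The 8 without a UMI were the pump isoform genes Atp6v0a4, Atp6v1b1 and Atp6v1e2, the accessory gene Atp6ap1l, the pseudogene Atp6v0c-ps1, and Ctsm, Ctsq and Ctsr, cathepsins of the rodent placenta. Atp6v0d2, the osteoclast form of the pump's d subunit, had 42 UMIs, of which 28 were in S/S TNF macrophages and 0 in A/A TNF macrophages. That is at least 6.87-fold more in S/S TNF than in A/A TNF macrophages against a floor of 3 UMIs, though 25% of the 28 sat in 1 cell. Ctsw, a cathepsin of cytotoxic lymphocytes, had 98 UMIs in the 5 classes. In the T or NK class of the same libraries it stood at 219 (S/S TNF), 222 (A/A TNF), 231 (S/S baseline) and 186 (A/A baseline) CPM, against at most 5.87 in macrophages. Ctsj, another placental cathepsin, had 37 UMIs in S/S TNF and 55 in A/A TNF endothelial cells, of which 37.8% and 78.2% sat in 1 barcode each. Ctsj is a near relative of Ctsl, so its counts are uncertain.

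Cathepsin sums differed more between the classes than pump sums. The 18 cathepsin genes summed to 6601 (S/S TNF), 6577 (A/A TNF), 5377 (S/S baseline) and 5884 (A/A baseline) CPM in macrophages. Monocytes held 4622, 4249, 5726 and 3693 in the same order, so macrophages were highest except in the S/S baseline library. Neutrophils held 1592, 1677, 1842 and 1548, and the dendritic class was in the same range with 1540 to 2209. The 25 pump and accessory genes varied less: macrophages held 2959, 3327, 3208 and 2537 CPM and neutrophils 2949, 2739, 2887 and 2422. Endothelial cells had the lowest pump sum of the 5 classes in each library, at 2033, 1933, 1723 and 1500 in the same order.

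**Figure D1:**
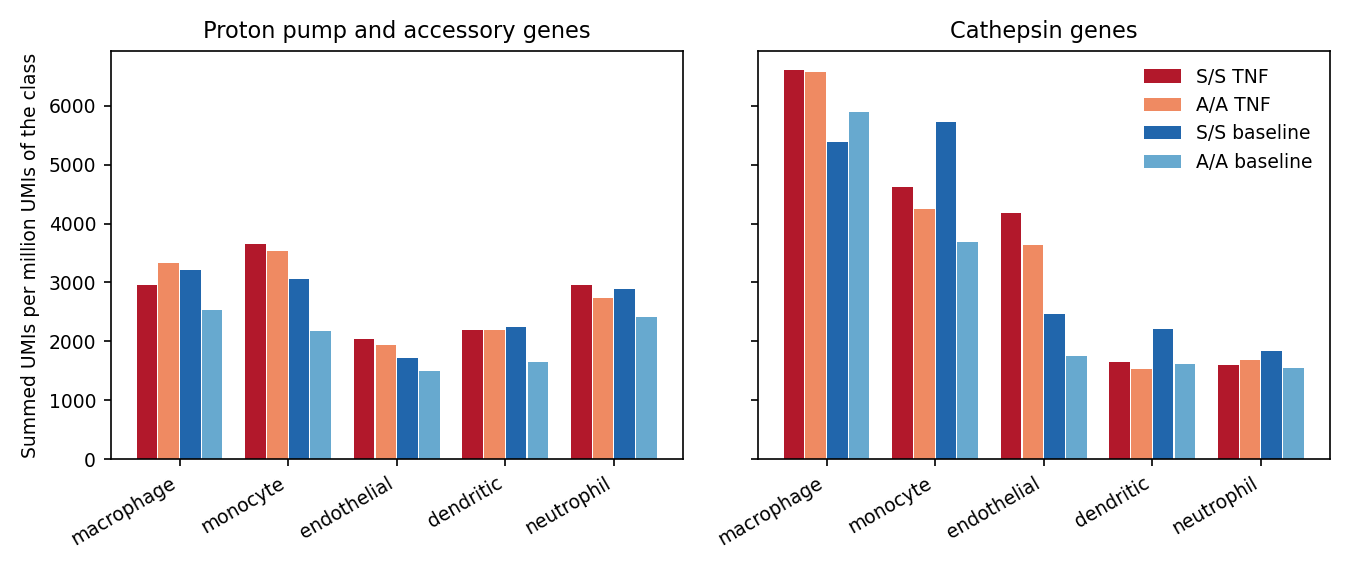
Summed CPM of each cell class (vertical axis) for the pump and accessory genes (left) and the cathepsin genes (right), with 1 bar per library and no error bars, since each group is 1 library. Cathepsin sums reach 6601 in S/S TNF macrophages and at most 1842 in neutrophils, while pump sums lie between 1500 and 3660 in all 5 classes.

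Among the 36 genes with at least 100 UMIs, 11 were highest in the same class in all 4 libraries. Macrophages were that class for Ctsb, Grn and Atp6v1f, of which Ctsb encodes a cysteine cathepsin and Grn the precursor of the lysosomal granulins. Monocytes led for Atp6v0b, a proteolipid of the V0 ring, and for Ctsz, a carboxypeptidase cathepsin. Endothelial cells led for Ctsl, Ctso, Lamp2 and the pump subunit gene Atp6v1g2. The lead of Atp6v1g2 rests on few endothelial UMIs: 9 (S/S TNF), 18 (A/A TNF), 2 (S/S baseline) and 5 (A/A baseline). In S/S baseline it stood at 10.2 CPM [1.23 to 36.8] in endothelial cells and 9.52 [3.83 to 19.6] in neutrophils. Neutrophils led for Ctse, an aspartic cathepsin, and Atp6v0a1, an isoform of the pump's a subunit. The other 25 had no class that led in every library.

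The 10 genes of highest CPM in macrophages, by the mean of the 4 libraries, were Ctsb, Psap, Ctsd, Ctss, Npc2, Atp6v0c, Ctsc, Lamp1, Atp6v1g1 and Ctsz. Ctsb stood at 2775 in S/S TNF and 3032 in A/A TNF macrophages, against 1425 in S/S baseline and 2313 in A/A baseline macrophages. Psap, the precursor of the saposins that help to break down sphingolipids, stood at 1995 in S/S TNF and 1462 in A/A TNF macrophages, against 916 in S/S baseline and 1077 in A/A baseline macrophages. Ctsd, the main aspartic cathepsin, stood at 1292 in S/S TNF and 963 in A/A TNF macrophages, against 939 in S/S baseline and 628 in A/A baseline macrophages. For Ctsb, Psap, Ctsd, Atp6v0c and Ctsz both TNF libraries lay above both baseline libraries. For Ctsd and Ctsz the counting intervals of A/A TNF and S/S baseline overlapped. Npc2, which hands cholesterol out of the lysosome, ran the other way, with 526 in S/S TNF and 396 in A/A TNF macrophages against 1139 in S/S baseline and 756 in A/A baseline macrophages. Ctss, the cathepsin known for trimming the invariant chain of MHC class II, stood at 732 in S/S TNF and 823 in A/A TNF macrophages, against 967 in S/S baseline and 1123 in A/A baseline macrophages. Ctsc and Atp6v1g1 were likewise lower in both TNF libraries than in both baseline libraries.

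**Figure D2:**
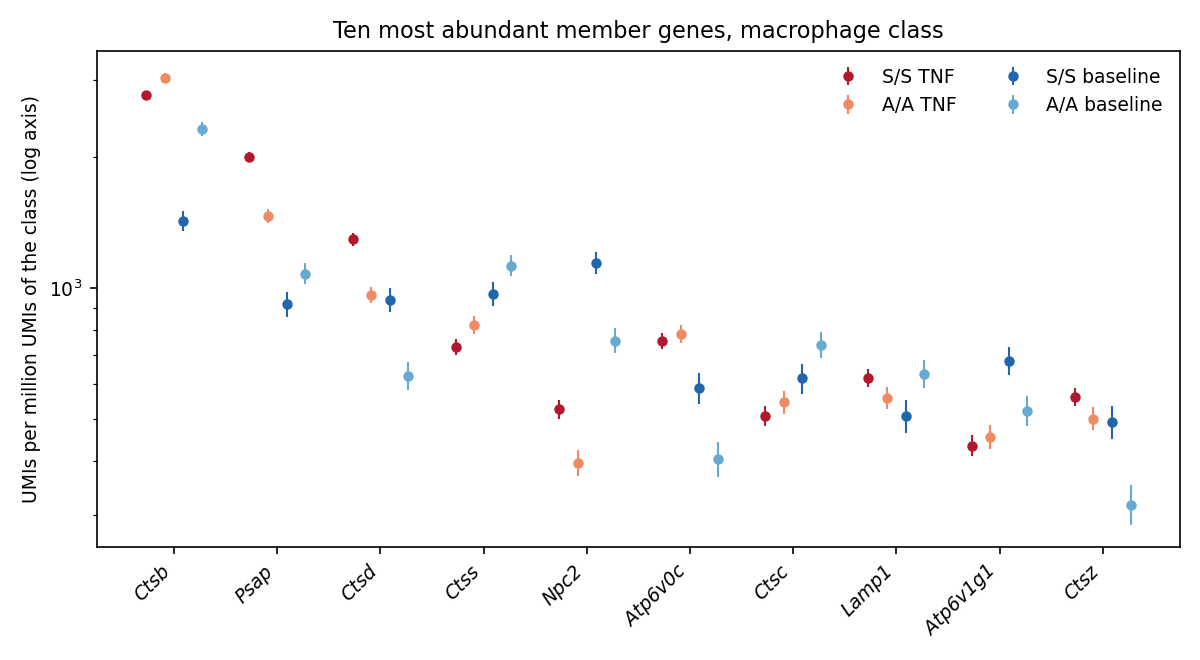
CPM of the macrophage class on a log axis for the 10 genes with the highest mean, with points for the 4 libraries and bars for exact 95% counting intervals. Ctsb, Psap, Ctsd, Atp6v0c and Ctsz are higher in both TNF libraries than in both baseline libraries. Npc2, Ctss, Ctsc and Atp6v1g1 are lower in both, and Lamp1 is neither.

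Set against the other 4 classes of its own library, the macrophage class shares the library and its software with its comparison, though its cells were shallower than monocytes, whose median was 14375.5 to 21073 UMIs. The other 4 classes were pooled by UMIs, and their mix differed between libraries. Monocytes gave 3724478 of these UMIs in S/S baseline, neutrophils 735656 and endothelial cells 196182. In the same order these classes gave 837609, 619725 and 642507 in A/A baseline. After TNF they gave 11816294, 6757296 and 5512679 in S/S, and 6492697, 8629815 and 7072057 in A/A. How far this mix shaped the ratios below was not tested. The medians of the log2 ratio over the genes with at least 20 UMIs were 0.07 for 38 genes in S/S TNF, 0.38 for 38 in A/A TNF, -0.21 for 34 in S/S baseline and 0.42 for 33 in A/A baseline. Over all genes they were -0.14, -0.21, -0.60 and -0.46 in the same order, so the lysosomal genes lay above the general median in each library. In cells with at most 1 marker of any other class, the S/S TNF and A/A TNF medians of the lysosomal genes rose past 2-fold. That gate also changed the mix of the other classes. In S/S TNF it left 376153 monocyte, 661814 endothelial and 4551525 neutrophil UMIs, and in A/A TNF 163344, 875418 and 5986526. How far this shaped the rise was not tested. In the whole classes of S/S TNF, 8 genes were at least 2-fold higher in macrophages and 2 at least 2-fold lower, where 5.07% and 14.4% of 13508 genes were. In A/A TNF the counts were 10 and 4, where 7.48% and 19.9% of 13388 genes were. In S/S baseline they were 3 and 6, where 5.93% and 36.8% of 10902 genes were, and in A/A baseline 10 and 3, where 7.93% and 35.1% of 10091 genes were. Ctsb was higher in macrophages by log2 ratios of 1.24 in S/S TNF, 1.46 in A/A TNF, 1.32 in S/S baseline and 2.55 in A/A baseline. Ctsd was higher by 1.90, 1.40, 1.46 and 1.36 in the same order, and Grn by 1.97, 2.93, 0.38 and 1.91. Atp6v0a1 was lower in macrophages in each library, by log2 ratios of -0.68, -1.76, -2.54 and -2.51. The medians over the V0 genes compared were -0.03, 0.00, -0.37 and -0.25 in the same order, and over the V1 genes -0.02, 0.50, 0.12 and 0.37. The cysteine cathepsin medians were 0.74, 0.29, 0.01 and 0.92.

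Endothelial cells were set apart by Ctsl, a cysteine cathepsin that digests proteins in the lysosome and is also secreted. It stood at 1301 in S/S TNF and 1353 in A/A TNF endothelial cells, against 918 in S/S baseline (only 32 cells) and 683 in A/A baseline endothelial cells. Macrophages held 166 in S/S TNF and 254 in A/A TNF, against 186 in S/S baseline and 107 in A/A baseline. The lowest endothelial value, 683, lay above the highest macrophage value, 254. Neutrophils were set apart by Ctse, at 70.3 in S/S TNF and 95.6 in A/A TNF neutrophils, against 171 in S/S baseline and 221 in A/A baseline neutrophils, and by Atp6v0a1, at 159 and 205 after TNF (S/S, A/A) against 204 and 242 at baseline (S/S, A/A). Ctsg, a serine protease of neutrophil granules, had 6 UMIs in S/S TNF and 86 in A/A TNF neutrophils, and all UMIs of each library came from 1 barcode.

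**Figure D3:**
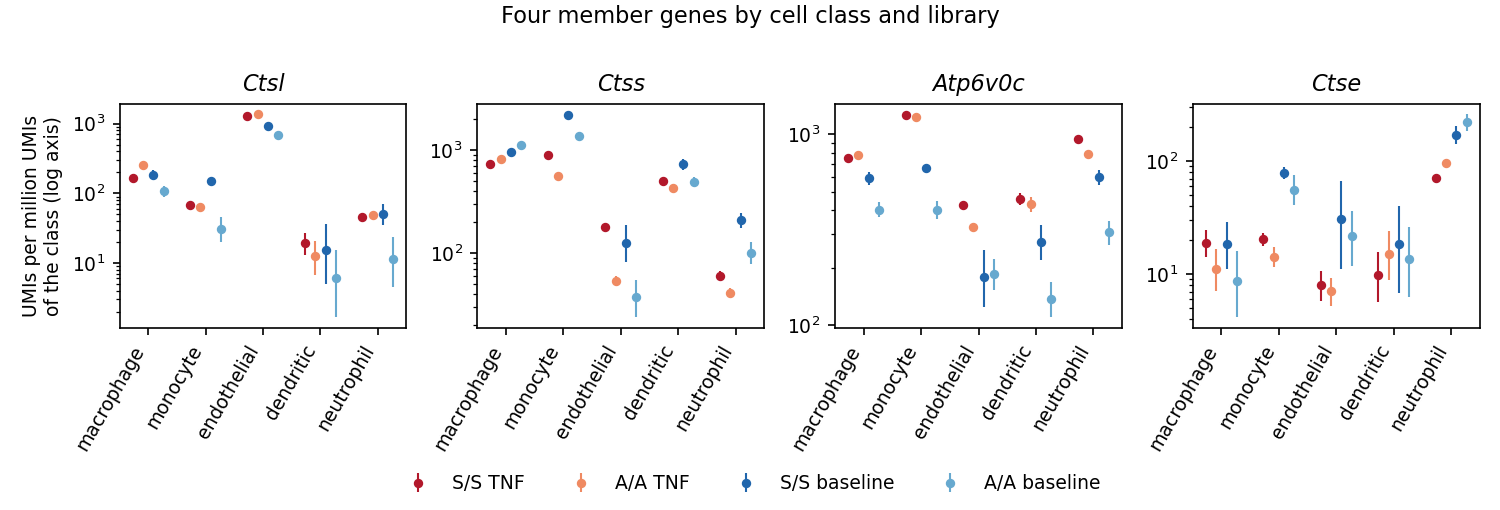
CPM of each cell class on log axes for Ctsl, Ctss, Atp6v0c and Ctse, with points for the 4 libraries and bars for exact 95% counting intervals. Ctsl is highest in endothelial cells and Ctse in neutrophils in all 4 libraries, Ctss is lower after TNF in monocytes and neutrophils, and Atp6v0c is higher after TNF in all 5 classes.

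After TNF the pump's V0 genes had ratios of both signs in macrophages. Of those compared, 2 of 7 in S/S and 0 of 6 in A/A were at least 2-fold higher, where 20% and 17.2% of all genes were, and 0 were at least 2-fold lower in either, where 13.3% and 13.1% were. Atp6v0c, which encodes the main proteolipid of the proton-carrying ring, was higher after TNF in every class compared. In monocytes it stood at 1260 in S/S TNF and 1239 in A/A TNF, against 668 in S/S baseline and 401 in A/A baseline. In neutrophils it stood at 945 in S/S TNF and 790 in A/A TNF, against 595 in S/S baseline and 307 in A/A baseline. Its log2 ratios were 0.36 [0.23 to 0.50] in S/S and 0.95 [0.80 to 1.11] in A/A macrophages, 0.91 [0.85 to 0.98] in S/S and 1.62 [1.47 to 1.79] in A/A monocytes, and 0.67 [0.53 to 0.81] in S/S and 1.36 [1.16 to 1.58] in A/A neutrophils. In A/A endothelial cells, the only endothelial TNF pair with enough cells, the ratio was 0.82 [0.56 to 1.10]. In macrophages with at most 1 marker of another class it stood at 700 in S/S TNF and 975 in A/A TNF, against 664 in S/S baseline and 460 in A/A baseline, with ratios of 0.08 in S/S and 1.08 in A/A. The Atp6v0c pseudogenes had 15 UMIs between them, and reads that they share with Atp6v0c cannot be told apart. Atp6v0b had ratios of -0.03 in S/S and 0.32 in A/A macrophages, -0.24 in S/S and 0.22 in A/A monocytes, 0.10 in S/S and 0.38 in A/A neutrophils, and 0.65 [0.30 to 1.04] in A/A endothelial cells. Atp6v0e, a small V0 subunit gene, was at 241 in S/S TNF macrophages against 456 in S/S baseline macrophages, a ratio of -0.92 [-1.09 to -0.75], and at 234 in A/A TNF against 278 in A/A baseline macrophages, a ratio of -0.25 [-0.46 to -0.04]. Atp6v0a1 went both ways: 1.86 [1.07 to 3.00] in S/S macrophages, on 117 UMIs after TNF and 11 at baseline, but -1.49 [-2.07 to -0.99] in A/A monocytes and -2.0 [-2.57 to -1.54] in A/A endothelial cells.

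Of the V1 genes of the catalytic head compared in macrophages, 0 of 8 in S/S and 3 of 8 in A/A were at least 2-fold higher after TNF, against those 20% and 17.2% of all genes, and 0 lower in either, against 13.3% and 13.1%. Atp6v1b2, the B subunit that with the A subunit binds ATP, stood at 141 in S/S TNF and 304 in A/A TNF macrophages, against 82.1 in S/S baseline and 134 in A/A baseline macrophages. The ratios were 0.77 [0.43 to 1.13] in S/S and 1.17 [0.92 to 1.44] in A/A. Centred by intron length the A/A ratio was 0.97, and in cells with at most 1 marker of another class it was 0.97 as well. In neutrophils the same gene was lower after TNF, by -1.52 [-1.80 to -1.26] in S/S and -1.12 [-1.38 to -0.86] in A/A, or -0.81 and -0.97 when centred by intron length. Atp6v1a, the A subunit gene, had ratios of 0.76 in S/S and 0.58 in A/A macrophages, and Atp6v1e1, part of the stalk, 0.52 in S/S and 1.04 in A/A. Atp6v1h, a regulatory subunit gene, had 0.46 in S/S and 1.31 in A/A macrophages. Atp6v1f and Atp6v1g1, which encode stalk subunits, were lower in S/S macrophages, by -0.74 and -0.64, and differed less in A/A macrophages, at -0.22 and -0.20. Atp6v1c1, whose product holds the head to the membrane sector, was lower in neutrophils at 13.5 in S/S TNF and 8.92 in A/A TNF against 51.7 in S/S baseline and 45.2 in A/A baseline. Both accessory genes were higher after TNF in macrophages and lower in neutrophils. Atp6ap1 had ratios of 1.11 [0.64 to 1.65] in S/S (0.86 to 1.0 under 4 alternatives) and 0.66 [0.23 to 1.13] in A/A macrophages, and Atp6ap2, also known as the prorenin receptor, 0.72 [0.33 to 1.13] in S/S and 1.15 [0.75 to 1.61] in A/A. In neutrophils Atp6ap2 was at -0.91 in S/S and -0.85 in A/A.

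**Figure D4:**
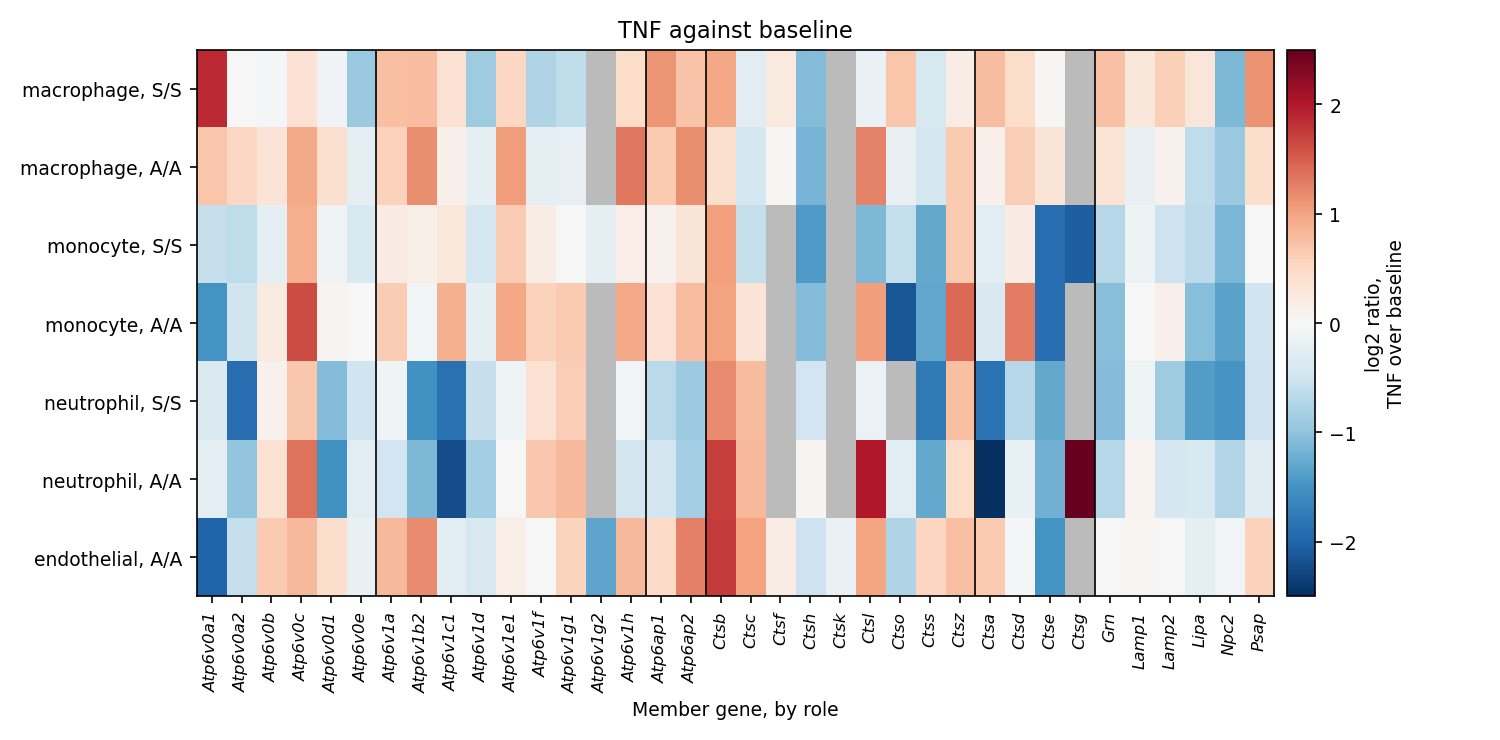
Log2 ratio of CPM, TNF over baseline, for the genes with at least 100 UMIs in all, in rows by cell class and genotype, with black lines between roles and grey where a pair held under 20 UMIs. Ctsb, Ctsz and Atp6v0c are red in all 7 rows, and Npc2 and Atp6v1d are blue in all 7, at times faintly.

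Among the cathepsins, Ctsb was higher after TNF in each class compared. Monocytes held 1348 in S/S TNF and 1333 in A/A TNF, against 658 in S/S baseline and 665 in A/A baseline, ratios of 1.03 [0.97 to 1.10] in S/S and 1.0 [0.88 to 1.13] in A/A. The values of the 2 genotypes nearly coincided both after TNF and at baseline. Neutrophils held 546 in S/S TNF and 584 in A/A TNF, against 239 in S/S baseline and 176 in A/A baseline. The ratios were 1.19 [0.97 to 1.42] in S/S and 1.73 [1.46 to 2.02] in A/A neutrophils, and the S/S one was 0.82 in cells with at most 1 marker of another class. The S/S monocyte ratio was 0.88 with 4 markers and a margin of 3. A/A endothelial cells held 1666 after TNF and 495 at baseline, a ratio of 1.75 [1.59 to 1.92]. In macrophages the ratios were 0.96 [0.88 to 1.04] in S/S and 0.39 [0.33 to 0.46] in A/A. Ctsz had ratios from 0.19 in S/S macrophages to 1.42 [1.27 to 1.58] in A/A monocytes. In macrophages with at most 1 marker of another class it stood at 386 in S/S TNF and 459 in A/A TNF, against 541 in S/S baseline and 310 in A/A baseline, so there it was lower after TNF in S/S.

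Ctsh and Ctss were lower after TNF in macrophages and monocytes. Ctsh, an aminopeptidase cathepsin, stood at 261 in S/S TNF and 176 in A/A TNF macrophages, against 556 in S/S baseline and 396 in A/A baseline macrophages. The ratios were -1.09 [-1.25 to -0.93] in S/S and -1.17 [-1.37 to -0.97] in A/A macrophages, and -1.42 [-1.50 to -1.35] in S/S and -1.09 [-1.28 to -0.90] in A/A monocytes. In neutrophils Ctsh had -0.47 [-0.89 to -0.04] in S/S and 0.07 [-0.41 to 0.59] in A/A. Ctss in monocytes stood at 908 in S/S TNF and 560 in A/A TNF, against 2218 in S/S baseline and 1372 in A/A baseline. Its ratio was -1.29 in both genotypes in monocytes, [-1.33 to -1.25] in S/S and [-1.39 to -1.20] in A/A. In macrophages it was smaller, -0.40 [-0.51 to -0.29] in S/S and -0.45 [-0.55 to -0.34] in A/A, and in neutrophils it was -1.77 [-2.05 to -1.51] in S/S and -1.27 [-1.68 to -0.88] in A/A. Ctse, which was at 20.4 in S/S TNF and 14.3 in A/A TNF monocytes against 78.9 in S/S baseline and 56.1 in A/A baseline monocytes, had a ratio of -1.90 in both genotypes. Ctsa, a carboxypeptidase that also protects other hydrolases in the lysosome, had the lowest ratios in A/A neutrophils, at 23.4 after TNF and 148 at baseline, a ratio of -2.61 [-3.03 to -2.29], and stood at 27.7 in S/S TNF against 102 in S/S baseline neutrophils. In macrophages Ctsa was higher, by 0.76 in S/S and 0.13 in A/A.

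Markers of neutrophils and monocytes were also higher in the macrophage class after TNF. Neutrophil markers summed to 1375 CPM in S/S TNF (9 of 10 seen, Stfa2l1 at 0) and 997 in A/A TNF macrophages (10 of 10), against 202 in S/S baseline (9 of 10, Ly6g at 0) and 328 in A/A baseline macrophages (8 of 10, Ly6g and Stfa2l1 at 0). Monocyte markers summed to 1022 in S/S TNF and 820 in A/A TNF (10 of 10 in both), against 644 in S/S baseline (10 of 10) and 395 in A/A baseline macrophages (8 of 10, Vcan and Ace at 0). Neutrophil markers were higher after TNF outside the macrophage class too. In the T or NK class they summed to 1112 (S/S TNF), 1053 (A/A TNF), 65.3 (S/S baseline) and 85.5 (A/A baseline). In the B or plasma class they summed to 872, 364, 124 and 20.8 in the same order. Monocyte markers summed to 487, 565, 740 and 553 in the T or NK class, and to 204, 191, 319 and 313 in the B or plasma class. The source of these UMIs was not tested. In the 170 (S/S TNF), 158 (A/A TNF), 363 (S/S baseline) and 249 (A/A baseline) macrophages with at most 1 marker of any other class, 26 of 28 genes compared in S/S and 24 of 28 in A/A had a TNF ratio of the same sign as in the whole class. The exceptions were Ctsz, at -0.49 in place of 0.19, and Atp6v0d1, at 0.13 in place of -0.09, in S/S. In A/A they were Grn, at -0.28 in place of 0.34, Lamp2, at -0.37 in place of 0.12, Atp6v1f, at 0.06 in place of -0.22, and Atp6v1g1, at 0.29 in place of -0.20. The ratio in S/S was 1.85 for Atp6v1h, -0.27 for Atp6v1d and -0.14 for Atp6v1f in these cells, against 0.46, -0.89 and -0.74 in the whole class. The 4 libraries had the same order as in the whole class for Ctsb, Ctsh, Psap and Npc2. Ctsb stood there at 2762 in S/S TNF and 3079 in A/A TNF, against 1335 in S/S baseline and 2404 in A/A baseline. Ctsh stood at 227 in S/S TNF and 167 in A/A TNF, against 585 in S/S baseline and 361 in A/A baseline.

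The lipid-handling and membrane genes divided between Psap and Npc2. Psap was higher after TNF in macrophages, by 1.12 [1.02 to 1.22] in S/S and 0.44 [0.34 to 0.54] in A/A, and had ratios of 0.00 in S/S and -0.50 [-0.57 to -0.43] in A/A monocytes. Npc2 was lower by -1.11 [-1.23 to -1.0] in S/S and -0.93 [-1.07 to -0.79] in A/A macrophages and by -1.14 [-1.19 to -1.08] in S/S and -1.33 [-1.46 to -1.21] in A/A monocytes. In macrophages with at most 1 marker of another class, Psap stood at 1436 in S/S TNF and 1183 in A/A TNF, against 653 in S/S baseline and 1087 in A/A baseline. Npc2 stood there at 491 in S/S TNF and 393 in A/A TNF, against 1253 in S/S baseline and 821 in A/A baseline. The S/S ratio of Psap was 0.91 in macrophages with 3 Kupffer cell markers and 0.90 when centred by intron length. In A/A endothelial cells Npc2 was at 126 after TNF and 132 at baseline. Lipa, the acid lipase that frees cholesterol and fatty acids, had ratios of 0.29 in S/S and -0.64 in A/A macrophages. Lamp1, a main glycoprotein of the lysosomal membrane, had ratios between -0.18 and 0.29 in the 7 TNF comparisons. The genes with a CLEAR core in their promoter window did not all share a direction in macrophages after TNF. In S/S macrophages Ctsa was at 0.76, Atp6v1a at 0.76, Ctsd at 0.46, Atp6v0d1 at -0.09 and Atp6v0e at -0.92. In A/A macrophages they were at 0.13, 0.58, 0.62, 0.39 and -0.25 in the same order. Only Atp6v0e was lower in both genotypes, and Atp6v0d1 in S/S was at 0.13 with at most 1 marker of another class.

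By number, the lysosomal genes did not stand out from all genes after TNF. In S/S macrophages, 4 of 34 compared were at least 2-fold higher and 2 at least 2-fold lower, where 20% and 13.3% of 8722 genes were. The higher ones were Atp6v0a1, Atp6v0d2, Psap and Atp6ap1, and the lower ones Ctsh and Npc2. The median log2 ratio over the 34 was 0.33, against 0.11 for all genes. In A/A macrophages, 5 of 33 were higher and 1 lower, where 17.2% and 13.1% of 8473 genes were, with medians of 0.33 and 0.08. These were Atp6v1h, Ctsl, Atp6v1b2, Atp6ap2 and Atp6v1e1, and the lower one was Ctsh. In S/S monocytes, 1 of 34 was higher and 6 lower, where 9.44% and 24.1% of 11780 genes were, with medians of -0.24 and -0.28. The higher one was Ctsb. In A/A monocytes, 5 of 32 were higher and 8 lower, where 15.4% and 23.6% of 9782 genes were, with medians of 0.09 and -0.08. The higher ones were Atp6v0c, Ctsz, Ctsd, Ctsl and Ctsb. In S/S neutrophils, 1 of 31 was higher and 10 lower, where 11% and 40.4% of 8628 genes were, with medians of -0.53 and -0.72. In A/A neutrophils, 4 of 33 were higher and 6 lower, where 18.5% and 29.1% of 9122 genes were, with medians of -0.30 and -0.25. In A/A endothelial cells, 4 of 37 were higher and 4 lower, where 22% and 18.7% of 10985 genes were, with medians of 0.16 and 0.10. The shares were below those of all genes in each class and direction except in A/A monocytes, where they were close to them, with 15.6% higher against 15.4%, and 25% lower against 23.6%.

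The TNF ratios of all genes also differed by intron length outside macrophages. Median ratios were -1.45 for genes of more than 100 kb of intron and 0.04 for those of less than 1 kb in S/S monocytes, and -1.66 and 0.33 in A/A monocytes. They were -2.21 and -0.07 in S/S neutrophils, -1.87 and 0.34 in A/A neutrophils, and -1.15 and 0.73 in A/A endothelial cells. In macrophages they were -0.11 and -0.20 in S/S and -0.26 and -0.03 in A/A. Whether intron reads were counted is not given in the sources used here. Each ratio was therefore also centred on the median of genes of like intron length, in 10 groups. Atp6v0c in A/A monocytes was then at 1.33, Ctsh in S/S monocytes at -1.25, Ctsa in A/A neutrophils at -2.83 and Ctsb in S/S neutrophils at 1.89. Ctss was at -0.97 in S/S monocytes and at -0.88 in S/S and -0.78 in A/A neutrophils, under 2-fold in all 3. Atp6v0d1 in neutrophils was at 0.04 in S/S and -0.73 in A/A, against -1.09 and -1.51 uncentred, and Atp6v1c1 at -0.98 in S/S neutrophils against -1.86.

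Between genotypes after TNF, few of the genes differed by 2-fold. In macrophages 1 of 34 compared was at least 2-fold higher in S/S and 1 at least 2-fold lower, where 4.53% and 6.24% of 9179 genes were. In monocytes 0 of 33 were higher and 0 lower, where 4.07% and 0.955% of 11524 genes were. In endothelial cells 2 of 37 (Ctss and Ctsc) were higher and 1 (Ctsw, with 1 UMI in S/S TNF and 25 in A/A TNF) lower, where 4.88% and 3.61% of 11787 genes were. In dendritic cells 1 of 32 (Ctsd, with 57 UMIs in S/S TNF and 16 in A/A TNF) was higher and 1 (Atp6v0a2) lower, where 3.18% and 7.89% of 7859 genes were. In neutrophils 0 of 34 were higher and 2, Atp6v0a2 and Ctsg, lower, where 2.3% and 2.45% of 10176 genes were. The macrophage gene higher in S/S was Atp6v0d2, described above, and the lower one was Atp6v1b2, at 141 in S/S TNF against 304 in A/A TNF macrophages, a ratio of -1.11 [-1.30 to -0.93]. In macrophages with at most 1 marker of another class the ratio was -0.90, and with the same weight per cell -0.89. Of the macrophages, 216 of 410 in S/S TNF and 430 of 536 in A/A TNF had 3 Kupffer cell markers, and in those the ratio was -1.20. The macrophage markers of the whole class summed to 7172 CPM in S/S TNF and 11173 in A/A TNF, and their part in the result was not tested. It was also lower at baseline, at 82.1 in S/S baseline against 134 in A/A baseline macrophages, a ratio of -0.70 [-1.11 to -0.32]. In the other classes Atp6v1b2 had genotype ratios after TNF of 0.23 in monocytes, 0.27 in endothelial cells, 0.27 in dendritic cells and -0.55 in neutrophils. In monocytes the highest genotype ratios after TNF were 0.90 [0.77 to 1.05] for Grn, at 151 in S/S TNF against 80.4 in A/A TNF, and 0.76 for both Atp6v0a1 and Npc2. The S/S over A/A ratio of Npc2 after TNF was 0.41 in macrophages, 0.76 in monocytes, 0.47 in endothelial cells, 0.86 in dendritic cells and 0.06 in neutrophils. Atp6v0a2, another isoform of the pump's a subunit, was lower in S/S dendritic cells, with 89 UMIs in S/S TNF and 124 in A/A TNF and a ratio of -1.09 [-1.51 to -0.70] (-0.87 when centred on the median of all genes), and lower in S/S endothelial cells by -0.78 [-1.05 to -0.55]. Of the dendritic cells, 44 of 81 in S/S TNF and 35 of 54 in A/A TNF lay at the limit of the marker rule. Among the 10 genes that led this class, Naaa, Xcr1 and Cst3 were shared by both libraries. Ccr7, Il12b and Fscn1 were on the S/S TNF list alone, and Cd207 and Apol7c on the A/A TNF list alone. The part of this difference in the dendritic ratios was not tested.

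In the endothelial class after TNF, 3 cathepsins of white blood cells were higher in S/S. Ctss stood at 182 in S/S TNF against 54.6 in A/A TNF endothelial cells, a ratio of 1.72 [1.56 to 1.91]. Ctsc, which activates granule proteases of leukocytes, stood at 103 in S/S TNF against 35.2 in A/A TNF, a ratio of 1.52 [1.33 to 1.77], and Ctsz at 223 against 116, a ratio of 0.94 [0.82 to 1.08]. Markers of monocytes, macrophages and neutrophils were also higher in S/S. The 10 monocyte markers, all of them with UMIs, summed to 748 CPM in S/S TNF and 282 in A/A TNF endothelial cells, and the 10 macrophage markers, again all with UMIs, to 560 in S/S TNF and 288 in A/A TNF. The 10 neutrophil markers, all seen, summed to 1655 in S/S TNF and 1242 in A/A TNF. Dendritic markers (10 of 10 in both) summed to 313 in S/S TNF and 483 in A/A TNF, and B or plasma cell markers to 40.8 in S/S TNF (8 of 10, Fcmr and Mzb1 at 0) and 601 in A/A TNF (10 of 10). Restricted to endothelial cells with at most 1 marker of any other class, 195 cells in S/S TNF and 380 in A/A TNF, Ctss had 3 UMIs in S/S TNF and 5 in A/A TNF, or 4.53 and 5.71 CPM. Ctsc had 5 UMIs in S/S TNF and 8 in A/A TNF, or 7.56 and 9.14 CPM, and Ctsz stood at 66.5 in S/S TNF and 56.0 in A/A TNF. In those cells the Ctss and Ctsc levels were not higher in S/S TNF than in A/A TNF. Ctsl, by contrast, stood at 1463 in S/S TNF and 1161 in A/A TNF among those same endothelial cells. In the whole class the order was the other way, at 1301 in S/S TNF and 1353 in A/A TNF, a ratio of -0.06 [-0.10 to -0.01]. Ctsb in the restricted cells stood at 1753 in S/S TNF and 1326 in A/A TNF, against 509 in A/A baseline.

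**Figure D5:**
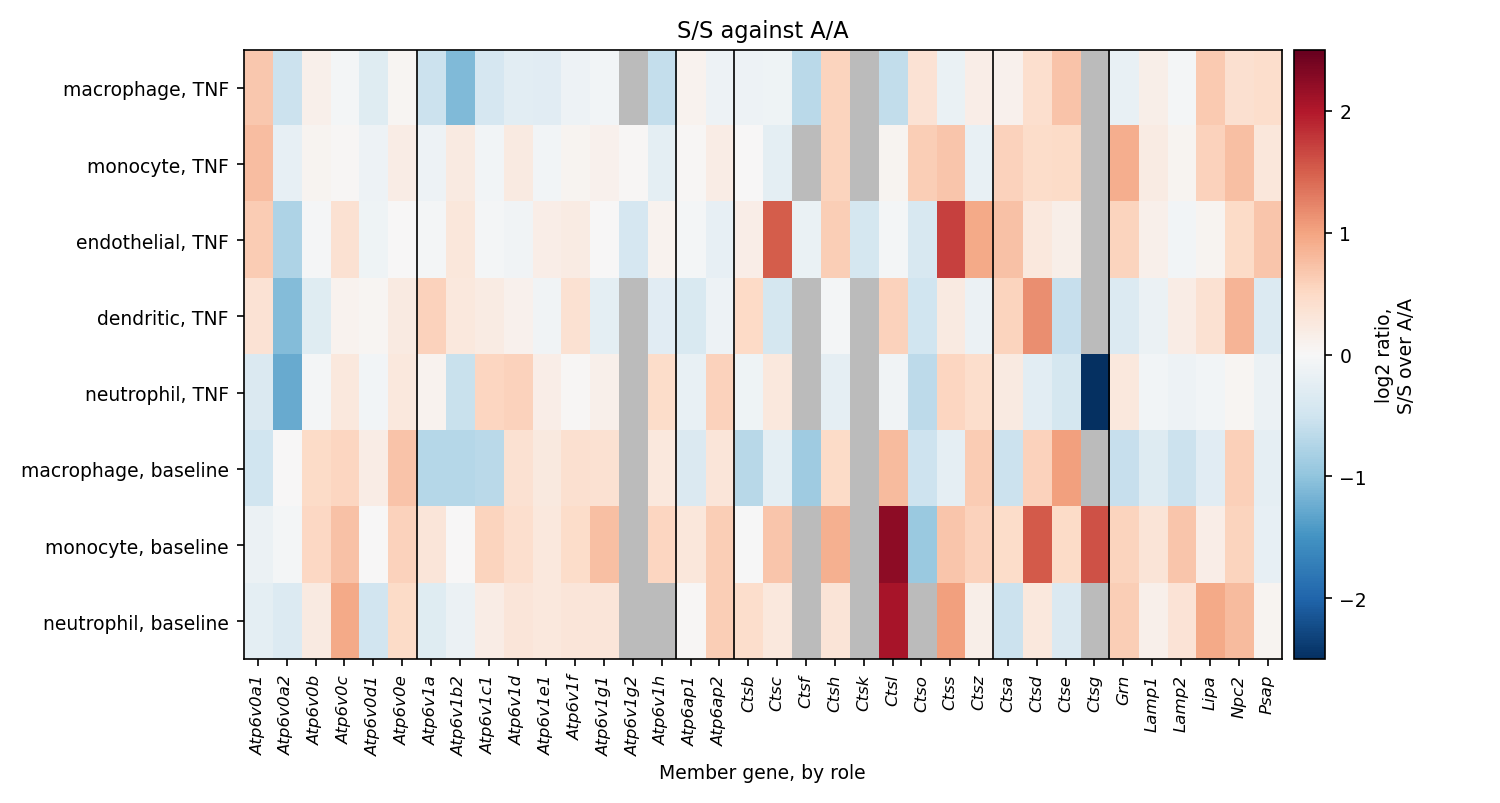
Log2 ratio of CPM, S/S over A/A, for the genes with at least 100 UMIs in all, in rows by cell class after TNF (upper 5) and at baseline (lower 3), with black lines between roles and grey where a pair held under 20 UMIs. Ctsl is red in monocytes and neutrophils at baseline and pale after TNF, and Ctss and Ctsc are red in endothelial cells after TNF.

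At baseline, 1 of 33 genes (Ctse, with 19 UMIs in S/S and 10 in A/A) was at least 2-fold higher in S/S macrophages and 0 at least 2-fold lower, where 5.75% and 12.1% of 7351 genes were. In monocytes 3 of 33 (Ctsl, Ctsd and Ctsg) were higher and 0 lower, where 9.16% and 4.24% of 9734 genes were, and in neutrophils 2 of 30 (Ctsl and Ctss) were higher and 0 lower, where 12.5% and 3.21% of 5551 genes were. Ctsg in monocytes rests on 21 UMIs in S/S baseline, 57.1% of them in 1 cell, and on 1 UMI in A/A baseline. The median over the genes compared in monocytes was 0.51, against 0.07 for all genes, on 254 S/S and 58 A/A cells. Ctsl was higher in S/S baseline in all 3 classes. Monocytes held 149 CPM in S/S baseline against 31.0 in A/A baseline (556 and 26 UMIs), a ratio of 2.23 [1.70 to 2.89]. Neutrophils held 50.3 in S/S baseline against 11.3 in A/A baseline (37 and 7 UMIs), a ratio of 2.06 [0.97 to 3.57]. Macrophages held 186 in S/S baseline against 107 in A/A baseline, a ratio of 0.79 [0.47 to 1.14]. The 10 endothelial markers summed to 8.86 CPM in S/S baseline monocytes, with 8 of 10 seen (Oit3 and Gpr182 at 0), and to 14.3 in A/A baseline monocytes, with 4 of 10 seen (Stab2, Kdr, Egfl7, Cdh5, Oit3 and Tie1 at 0). Macrophage markers summed to 840 in S/S baseline monocytes (9 of 10, Timd4 at 0) and 314 in A/A baseline monocytes (10 of 10). Neutrophil markers summed to 591 in S/S baseline (9 of 10, Ly6g at 0) and 160 in A/A baseline monocytes (5 of 10, with Cxcr2, Mmp9, Ly6g, Lcn2 and Stfa2l1 at 0). In baseline neutrophils, monocyte markers summed to 352 in S/S (9 of 10, Ace at 0) and 79.1 in A/A (7 of 10, F13a1, Vcan and Ace at 0). Macrophage markers summed to 171 in S/S (10 of 10) and 300 in A/A (9 of 10, Marco at 0), and neutrophil markers to 95623.5 and 43077. Ngp, Camp and Ltf were among the 10 leading genes of neutrophils in S/S baseline but not in A/A baseline. The part of these markers and genes in the results was not tested. No more than 15.4% of the Ctsl UMIs of either monocyte library sat in 1 cell. Ctsd was also higher in S/S baseline monocytes, at 282 against 96.7 in A/A baseline monocytes, a ratio of 1.53 [1.22 to 1.89], and Ctsh at 658 against 355, a ratio of 0.89. In macrophages Ctsb was lower in S/S baseline, at 1425 against 2313 in A/A baseline, a ratio of -0.70 [-0.79 to -0.61].

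After TNF, the Ctsl values of the 2 genotypes lay close together in monocytes, at 68.1 in S/S TNF and 64.7 in A/A TNF, and in neutrophils, at 45.4 in S/S TNF and 48.2 in A/A TNF. The TNF ratio of Ctsl in monocytes was therefore -1.12 [-1.29 to -0.97] in S/S and 1.04 [0.49 to 1.69] in A/A. In neutrophils it was -0.14 [-0.64 to 0.39] in S/S and 2.00 [1.04 to 3.42] in A/A, and in macrophages -0.16 [-0.41 to 0.09] in S/S and 1.25 [0.97 to 1.55] in A/A. In macrophages with at most 1 marker of another class, Ctsl stood at 185 in S/S TNF, 178 in A/A TNF, 194 in S/S baseline and 89.8 in A/A baseline. Of the 4 libraries, A/A baseline had the lowest Ctsl level in each of the 5 classes, and it rests on 26 UMIs in monocytes and 7 in neutrophils.

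Other genes of the lysosome were read from 5 further lists. Of 33 other acid hydrolases, 30 could be compared in macrophages, of which 3 in S/S and 3 in A/A were at least 2-fold higher after TNF and 3 in S/S and 5 in A/A at least 2-fold lower. Of all genes in macrophages, 20% in S/S and 17.2% in A/A were higher and 13.3% and 13.1% lower, which is also the background of the lists below. In monocytes 11 of 32 in S/S and 13 of 31 in A/A were at least 2-fold lower and 1 in each higher, and in neutrophils 15 of 29 in each genotype were lower and 1 higher. Of all genes, 24.1% in S/S and 23.6% in A/A monocytes were lower and 9.44% and 15.4% higher, and 40.4% in S/S and 29.1% in A/A neutrophils were lower and 11% and 18.5% higher. Acp2, lysosomal acid phosphatase, was higher after TNF in macrophages, by 1.81 [1.39 to 2.30] in S/S and 1.33 [1.03 to 1.67] in A/A, and in monocytes by 2.53 [2.30 to 2.87] in S/S and 2.41 [1.95 to 2.97] in A/A. Of 16 genes for sorting and transcriptional control, 7 of 16 compared in S/S and 3 of 14 in A/A macrophages were at least 2-fold higher after TNF, and 0 in S/S and 1 in A/A lower. Among them M6pr, a receptor that carries new hydrolases to the lysosome, had ratios of 1.58 in S/S and 1.02 in A/A macrophages, and Tfe3, a relative of TFEB, 1.21 in S/S and 1.07 in A/A. Of 14 membrane genes, 2 of 12 were higher and 1 lower in S/S macrophages, and 0 of 13 higher and 2 lower in A/A. Slc11a1, a metal transporter of phagosomes, had ratios of 1.02 in S/S and 0.66 in A/A macrophages. Of 11 cathepsin inhibitor genes only 3 could be compared in macrophages, among them Cstb, which blocks cysteine cathepsins, at 0.25 in S/S and 1.61 in A/A, and Cst3, a secreted inhibitor, at 0.34 in S/S and 0.43 in A/A. Serpinb6a, the third one, was at -1.27 in S/S and -0.74 in A/A. Of 11 genes for pump assembly, 1 of 9 in S/S and 1 of 8 in A/A macrophages was at least 2-fold higher after TNF and 0 lower.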

How the data were processed

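Each of the 4 groups gave 1 single-cell library (10x Genomics 3′ chemistry) from 2 pooled mice. The deposited matrices held whole-number UMI counts per gene and barcode, made by the authors with Cell Ranger (6.1.2 after TNF and 7.1.0 at baseline, per the file headers) against mm39, per the submitters' processing notes. The genes and lists were chosen with earlier results of these data known. Cells were kept if they had 300 or more genes seen and 20% or less mitochondrial UMIs, leaving 5528 (S/S TNF), 6452 (A/A TNF), 4366 (S/S baseline) and 2830 (A/A baseline) cells. A cell took the class of 10 with most markers seen, given at least 3 and 2 more than any other class, and 1306, 1151, 850 and 427 cells took none. No doublet caller was run. UMIs were summed per class and library and given as CPM of the class total. A class was compared with at least 50 cells in both libraries, a gene with at least 20 UMIs in the pair. Log2 ratios added 1 CPM to each level, and called means at least 2-fold. Levels have exact Poisson and ratios exact binomial 95% intervals, the second without the added CPM. Both cover counting error only. Genes were named in a comparison if among the 3 highest or 3 lowest with 100 or more UMIs over both libraries and 20 CPM in the higher, as were the 10 highest in macrophages. Values of other genes were chosen after they were seen. Of 85 genes on the 5 other lists, 83 were found. Intron lengths came from a GRCm38 annotation and served only as a gene property. The share of Rn18s-rs5 was 13.7% (S/S TNF), 14.3% (A/A TNF), 5.98% (S/S baseline) and 17.0% (A/A baseline) of UMIs. The ratio and its interval were tested on simulated independent Poisson counts. These hold no spread between cells or mice, so the check covers the counting error only. Scripts ran in Python 3.11.15 with pandas 2.3.3, numpy 2.4.6, matplotlib 3.10.9 and scipy 1.17.1.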

Additional observations from a re-analysis of the deposited data

Results flagged for a closer look

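Ctsl in monocytes drew attention because its log2 ratio of TNF over baseline lay past 2-fold in opposite directions in the genotypes, at -1.12 in S/S and 1.04 in A/A. With 1 library per group, the difference between them was not tested. It rests on 26 UMIs of Ctsl in the 58 A/A baseline monocytes.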

How the results depend on the processing

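No paired analysis was possible because each group holds 1 library. For the same reason no replicate could be left out. In all, 19 medians and 90 named ratios were recomputed under up to 10 alternatives, of which the one with macrophages showing 3 of 6 Kupffer cell markers was chosen after seeing the data. Values could be computed for 18 medians and 84 ratios with the stricter gate, 14 and 56 with at most 1 other marker, 7 and 42 with intron centring and 8 and 24 with Kupffer markers. No named ratio past 2-fold took the opposite sign. In the main setting no median was past 2-fold. Medians changed sign 4 times with at most 1 other marker, 4 times centred on all genes, 3 times centred by intron length, 2 times with the same weight per cell, and 1 time each with stricter cell filters, the reduced total and the minimum of 100 UMIs. The medians moved by less than their counting interval under stricter cell filters, a stricter gate, a total without Rn18s-rs5, mitochondrial and haemoglobin genes, a minimum of 100 UMIs and an added 10 CPM. Medians moved past their counting interval as follows. Taking cells of at most 1 marker of another class also changed the mix of the other classes. With them, macrophages against the other classes had 1.10 in S/S TNF and 1.14 in A/A TNF, both past 2-fold. Centred on the median of all genes, these medians were 0.21 in S/S TNF, 0.59 in A/A TNF, 0.39 in S/S baseline and 0.88 in A/A baseline, and the neutrophil TNF medians were 0.19 in S/S and -0.052 in A/A. With the same weight per cell, macrophages against the other classes had 0.47 in S/S TNF, 0.58 in A/A TNF and 0.73 in A/A baseline. Centred by intron length, the neutrophil TNF medians were 0.19 in S/S and 0.12 in A/A. With Kupffer markers, the S/S macrophage TNF median was 0.11. The causes were not tested. Of the 33 named TNF ratios past 2-fold, 26 stayed past it with intron centring, and of the 24 ratios past 2-fold that the gate of at most 1 other marker could still compute, 17 did. Under that gate 3 of 56 named ratios changed sign, each of them S/S against A/A after TNF: Ctsl in macrophages was 0.05 in place of -0.61, Atp6v1h in macrophages 0.15 in place of -0.59 and Atp6ap2 in endothelial cells 0.02 in place of -0.21. Monocytes and dendritic cells fell under 50 cells in it and gave no value. The smallest of the compared classes at baseline were the A/A neutrophils, with 619725 UMIs, and the A/A endothelial cells, with 642507.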
